A study of Mus musculus with 16 samples.

Results

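The expression of 10 genes of iron handling and heme synthesis was read in the livers of 16 female mice: Hamp, Hamp2, Bmp6, Tfr2, Tfrc, Steap2, Slc40a1, Fth1, Alas1 and Alas2. They were chosen by symbol as genes of iron uptake, export, storage and hormonal control and of heme synthesis, with the normalized counts and genotype differences of these same livers already known, and all 10 of 10 were matched among the 30199 genes of the deposited table. Poly(A)-selected RNA was sequenced as 1 library per mouse from 4 genotypes with 4 mice each, all aged 5 months and fed a standard rodent diet. The genotypes are wild type (both genes intact), Ncoa5+/- (1 Ncoa5 allele lost, Tip30 intact), Tip30+/- (1 Tip30 allele lost, Ncoa5 intact) and Ncoa5+/-Tip30+/- (1 allele of each lost), called double heterozygote below. The Ncoa5 protein binds nuclear receptors and modulates their transcription. Tip30, whose official symbol is Htatip2, has been studied as a tumour suppressor gene. Sources used here do not give the strain, the structure of the deleted alleles or the cell types in which they are deleted. Mice are numbered 1 to 4 within a genotype in the order of their samples.

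Iron enters the body under the control of hepcidin, a peptide hormone that hepatocytes make from Hamp. Hepcidin binds ferroportin (Slc40a1), the iron exporter of cells, and removes it from the membrane. Bone morphogenetic protein 6 (Bmp6), made largely by the sinusoidal endothelium of the liver, raises Hamp transcription through SMAD proteins, and transferrin receptor 2 (Tfr2) takes part in sensing transferrin-bound iron. Inside cells iron is taken up through transferrin receptor 1 (Tfrc), stored in ferritin (heavy chain, Fth1) and used for heme, whose first step is catalysed by Alas1 in most tissues and by Alas2 in red-cell precursors.

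Hamp and Hamp2 are neighbouring copies on the minus strand of chromosome 7 (GRCm38), at 30942368 to 30944032 and 30922372 to 30924681 in GENCODE, with 17.7 kb between them. RefSeq places the starts at 30944029 and 30924181, so the GENCODE start lies 3 bases further upstream for Hamp and 500 bases further upstream for Hamp2. The 250 bases before each RefSeq start are shown because these stretches are near copies, while the genes differ in level and in pattern over the genotypes. By the GENCODE model the whole Hamp2 stretch lies inside the gene. The sequences are from RefSeq (GRCm38.p6), from chr7:30944030-30944279 for Hamp and chr7:30924182-30924431 for Hamp2, both read 5′ to 3′ on the minus strand. Capitals mark GGCGCC, the core of the element through which BMP signals act on Hamp, and TTCNNNGAA, the form of site bound by STAT proteins such as the STAT3 of inflammation.
Hamp: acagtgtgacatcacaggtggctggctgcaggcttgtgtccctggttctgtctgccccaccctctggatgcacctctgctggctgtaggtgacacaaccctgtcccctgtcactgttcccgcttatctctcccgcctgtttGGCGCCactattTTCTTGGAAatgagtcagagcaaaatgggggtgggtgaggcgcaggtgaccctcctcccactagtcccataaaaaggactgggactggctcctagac
Hamp2: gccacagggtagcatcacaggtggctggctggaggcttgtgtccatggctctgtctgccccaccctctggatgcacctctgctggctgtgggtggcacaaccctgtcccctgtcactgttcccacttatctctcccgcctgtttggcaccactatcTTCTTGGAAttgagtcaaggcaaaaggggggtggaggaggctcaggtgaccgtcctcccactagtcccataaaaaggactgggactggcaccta
Over 247 aligned bases the 2 stretches were 91.9% identical. Both held TTCNNNGAA, with its first base 97 bases before the RefSeq start in Hamp and 94 bases before it in Hamp2. GGCGCC stood only in the Hamp stretch, 109 bases before the RefSeq start, and the Hamp2 stretch differed from it there by the single substitution G145A (Hamp base, position from the 5′ end of the Hamp stretch, Hamp2 base). Each motif reads the same on both strands, the 2 motifs did not overlap here, and among 32851 RefSeq promoter windows of the same length 9.59% held GGCGCC and 7.02% held TTCNNNGAA. These matches describe letters and not binding. The transcripts of both genes were 94.6% identical over 410 aligned bases, with identical runs of up to 87 bases, and sources used here do not say how reads that match both were counted, so part of the reads may have been assigned to the wrong copy.

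Libraries held 24740706 to 37939978 reads in genes. Htatip2 averaged 37.9% of the wild-type level in Tip30+/- and 47.5% in the double heterozygotes, with no overlap with mice of intact Tip30. Ncoa5 averaged 89.4% of wild type in Ncoa5+/- livers and 91.9% in double heterozygotes, ranges overlapped, and the Ncoa5 genotype therefore rests on the labels. Hepatocyte markers summed to 2160720 to 3397060 normalized counts per library, and Kupffer cell, endothelial and red-cell markers were also present, so the tissue is liver with its other cells. In bulk tissue, fewer cells of a type and less RNA per cell cannot be told apart. There were 4 libraries that stood apart from the rest by a Zhx2 level under 0.5 of the median (wild type 1 and 2, Ncoa5+/- 1 and 4), and values without those 4 are given below where they matter. The mouse tags in the labels fall into 9 lower and 7 higher numbers, divided at 4300. The labels do not say what the tags stand for.

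The 10 genes covered a wide range of levels. In normalized counts per kilobase of exon, Hamp averaged 70847 ± 25908 (SD, n = 16), Fth1 12060 ± 1132, Tfr2 3914 ± 516 and Alas1 2707 ± 1233. Lower down stood Hamp2 at 521 ± 373, Slc40a1 at 490 ± 125, Tfrc at 188 ± 163, Alas2 at 142 ± 49.9, Bmp6 at 46.2 ± 13.0 and Steap2 at 5.91 ± 4.00. The ranges over the 16 livers overlapped between these neighbours in the order: Tfr2 and Alas1, Hamp2 and Slc40a1, Slc40a1 and Tfrc, and Tfrc and Alas2. The other neighbours did not overlap. Between livers, the highest value exceeded the lowest 13.5-fold for Hamp2, 13.0-fold for Tfrc and 8.46-fold for Steap2, but only 1.54-fold for Tfr2 and 1.39-fold for Fth1. Fth1 has processed copies in the genome, and reads shared with them could be split.

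**Figure D1:**
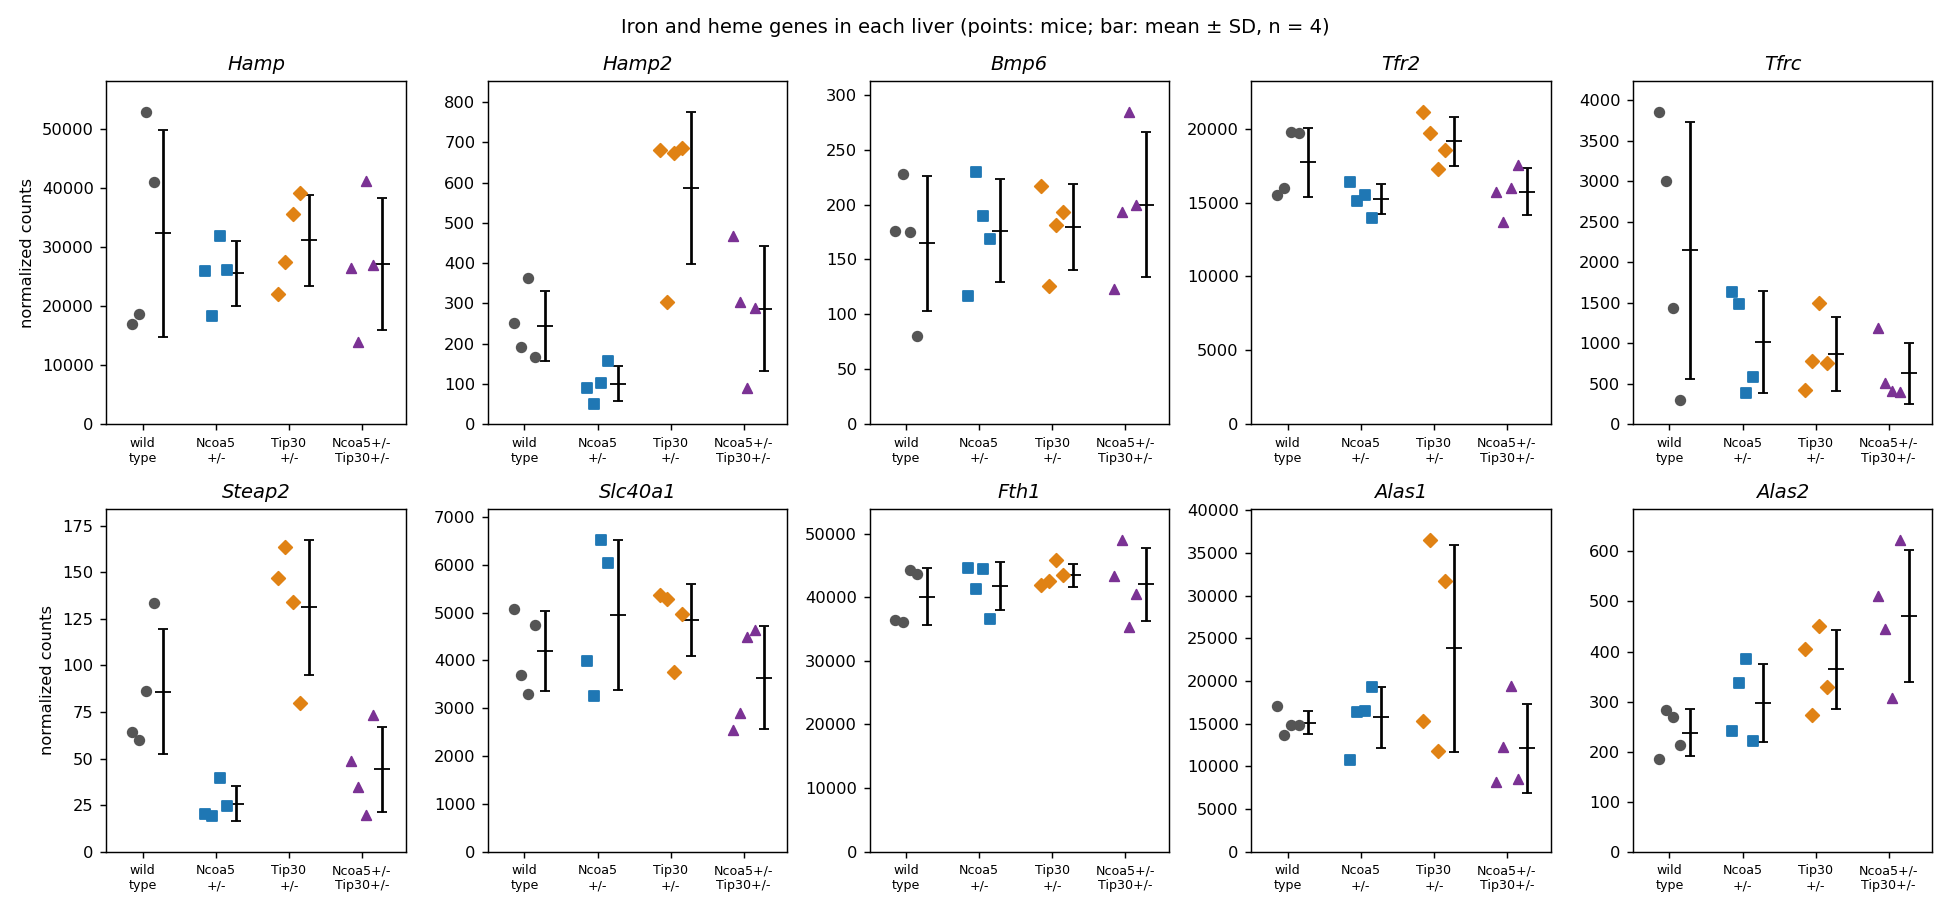
Normalized counts (linear axes from 0) of the 10 genes in each of 16 livers, by genotype. Points are mice and the bars give the mean ± SD of 4 mice. Steap2 in Ncoa5+/- livers (19.3 to 39.6) lies below every wild-type liver (59.9 to 133), and Tfrc spreads from 296 to 3850 within the wild type alone.

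Because the genes were chosen with results of these libraries in view, their differences are described and not tested. Each difference below is on the scale of log2(normalized count + 1), from limma fitted to all 15263 genes with a mean of at least 10, with its SE (n = 4 against 4) and, where given, the 95% confidence interval. All 10 genes passed that filter. An adjusted p (Benjamini-Hochberg over all tested genes) under 0.05 was used as a threshold for the table as a whole. In Ncoa5+/- against wild type, 1 of the 10 genes lay under it (Steap2, lower), where 0.557% of all tested genes did and 0.0262% lay under it and were lower. In the same comparison 2 of the 10 genes (Hamp2 and Steap2) were lower in every Ncoa5+/- mouse than in every wild-type mouse, as were 2.42% of all tested genes. In Tip30+/- against wild type, 0 of 10 lay under the threshold by limma, edgeR or DESeq2 (2 had an unadjusted p under 0.05 in limma), beside 0.0131% of all genes, and none of the 10 separated the groups, as 4.44% of all genes did. In the double heterozygotes against wild type, 1 of 10 (Alas2, higher) lay under it, beside 2.67% of all genes (1.4% higher), and Alas2 was also the 1 of 10 that was higher in every mouse, beside 4.7% of all genes. Against Tip30+/-, the double heterozygotes had 1 of 10 under the threshold (Steap2, lower), beside 3.07% of all genes (1.47% lower), and Steap2 was the 1 of 10 that was lower in every mouse, beside 9.05%. Against Ncoa5+/- the count was 0 of 10 by limma, edgeR and DESeq2 (2 at an unadjusted p under 0.05), beside 0.0197% of all genes, and no groups separated, beside 4.8%. For the interaction (the effect of losing an Ncoa5 allele beside a lost Tip30 allele, less its effect beside intact Tip30) it was 0 of 10 by the 3 tools (0 at an unadjusted p under 0.05 in limma), beside 0% of all genes. The genes were picked with these calls known, and nothing is read from the counts. The 3 comparisons with wild type share the same 4 wild-type mice.

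**Figure D2:**
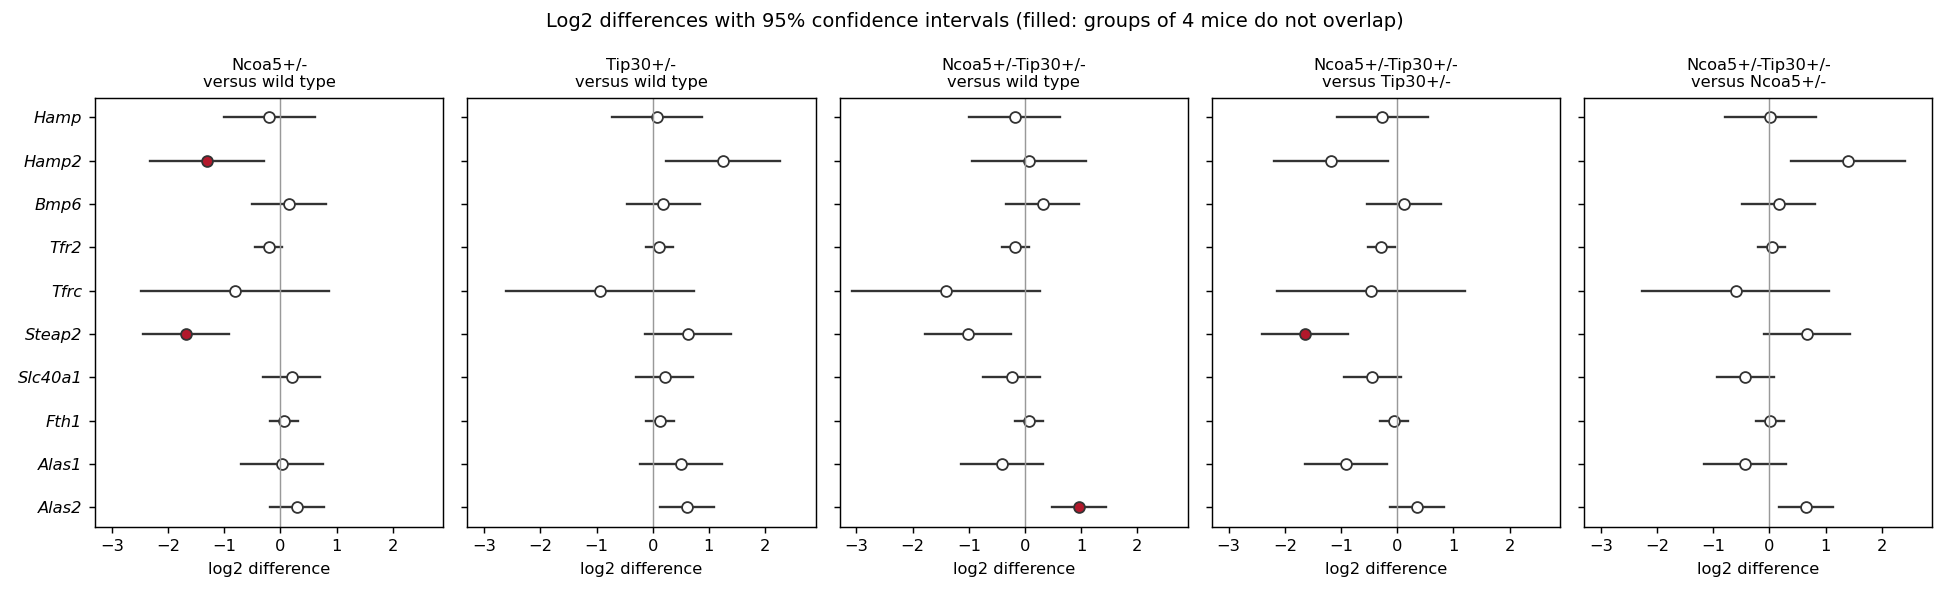
Log2 differences of the 10 genes (points) with 95% confidence intervals (lines) in 5 comparisons of genotypes, 4 mice against 4. Filled points are differences in which the groups did not overlap, namely Hamp2 and Steap2 in Ncoa5+/- against wild type, Alas2 in double heterozygotes against wild type and Steap2 in double heterozygotes against Tip30+/-.

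Hamp, the gene of the iron hormone, varied as much within a genotype as between genotypes. Wild-type mice 1 to 4 had 16942, 18645, 52882 and 40999 normalized counts. Ncoa5+/- mice had 25929, 18361, 31809 and 26040. In Tip30+/- mice the values were 22135, 27500, 35682 and 39197, and double heterozygotes 26531, 13911, 41260 and 26930. All 4 groups overlapped, and both the highest and the second lowest of all livers were wild type. Against wild type the log2 difference was -0.20 ± 0.38 in Ncoa5+/- (95% confidence interval -1.01 to 0.61), 0.08 ± 0.38 in Tip30+/- and -0.18 ± 0.38 in double heterozygotes. Wild type 1 and 2, the pair low in Hamp, are also the wild-type pair low in Zhx2. Without the 4 libraries low in Zhx2 the 3 differences read -0.95, -0.62 and -0.88, with only 2 wild-type mice left.

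Hamp2, the duplicate of the hepcidin gene in the mouse, had another pattern. Wild-type mice had 251, 190, 363 and 168 normalized counts, Ncoa5+/- mice 90.1, 50.9, 103 and 157. The Tip30+/- values were 681, 303, 674 and 686, and double heterozygotes 467, 303, 88.4 and 288. Every Ncoa5+/- liver was below every wild-type liver, 3 of 4 Tip30+/- livers were above all others, and the double heterozygotes spanned both. The log2 difference from wild type was -1.31 ± 0.47 in Ncoa5+/- (95% confidence interval -2.33 to -0.30) and 1.26 ± 0.47 in Tip30+/- (0.24 to 2.27). In double heterozygotes it was 0.08 ± 0.47, and they lay -1.18 ± 0.47 from Tip30+/- and 1.39 ± 0.47 from Ncoa5+/-. The interaction, the departure of the double heterozygotes from adding up the single differences, was 0.13 ± 0.67 (95% confidence interval -1.30 to 1.57), an interval that also holds departures of more than 2-fold. Within the lower tags the difference was -1.67 for Ncoa5+/- and 1.24 for Tip30+/-, and within the higher tags -0.95 and 1.47 (2 mice against 2, but 3 against 2 and 1 against 2 for Tip30+/-). For the double heterozygotes against wild type the sign differed between ranges, 0.78 in the lower and -0.63 in the higher tags. Hamp2 lies on the same chromosome as Htatip2, 18.8 Mb away, and variants inherited with the Tip30 deletion cannot be told apart from the deletion itself. Per kilobase, the ratio of Hamp to Hamp2 had a median of 173 in wild type, 424 in Ncoa5+/-, 78.3 in Tip30+/- and 107 in double heterozygotes, and ranged from 65.3 to 664 within the double heterozygotes.

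Bmp6, the ligand that acts on Hamp, had 80.0 to 228 normalized counts in wild type (median 175), 117 to 230 in Ncoa5+/- (179), 126 to 217 in Tip30+/- (188) and 123 to 284 in double heterozygotes (196). All groups overlapped, and the differences from wild type were 0.15, 0.19 and 0.31, each ± 0.31. Without the libraries low in Zhx2 they read 0.81, 0.57 and 0.69, with only 2 wild-type mice left. Within the lower tags they were -0.29, -0.23 and -0.38 and within the higher tags 0.59, 0.70 and 1.0, so the sign turned between the ranges for all 3 genotypes. These 3 differences share the same 2 wild-type mice in each range, and there is 1 Tip30+/- mouse in the higher range. In the wild type itself the mean log2 level was 0.75 higher at lower tags. The level of Bmp6 moved with markers of Kupffer cells and with those of the sinusoidal endothelium. The 10 marker genes of that cell (Stab1, Stab2, Lyve1 and others, all in the table, with no call in limma, edgeR or DESeq2 and at most 1 at an unadjusted p under 0.05 in any comparison) summed to 6002 to 12142 normalized counts in wild type, 6568 to 10483 in Ncoa5+/-, 7002 to 8806 in Tip30+/- and 7453 to 11125 in double heterozygotes. On the log2 scale over 16 libraries Pearson's r with Bmp6 was 0.84 (permutation p = 7.00e-05, adjusted over 4 such relations 0.000280) and Spearman's rho 0.70 (p = 0.00326, adjusted 0.0130). Without the 2 libraries farthest from the median marker level r was 0.77, within genotypes 0.87, and within lower and higher tags 0.81 and 0.88. With the Kupffer cell marker sum r was 0.73 (0.79 within genotypes), and with the hepatocyte marker sum -0.57 (-0.65 within genotypes). Adjusted over all 50 pairs of the 10 genes with 5 marker sums, the permutation p of r was 0.00200 for the endothelial, 0.0495 for the Kupffer cell and 0.136 for the hepatocyte markers. The adjusted permutation p of rho was 0.0726, 0.145 and 0.197 in the same order, none of them under 0.05. Wild type 4 was the lowest of all livers in Bmp6 (80.0) and in the endothelial and Kupffer cell sums (6002 and 3346). These measures share the library and its depth, and whether the relation with the endothelium is closer than that with Kupffer cells was not tested. The part that the numbers of these cells had in the level of Bmp6 was not tested. Reads over 224 of the 3900 exon bases of Bmp6 could also come from Txndc5 on the opposite strand, whose own differences from wild type ran from -0.27 to -0.07.

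Tfr2, the sensor of transferrin iron, was the steadiest gene after Fth1. Wild-type mice had 15486, 15973, 19785 and 19740 normalized counts, Ncoa5+/- mice 16395, 15108, 15545 and 13927. Tip30+/- mice had 21128, 19717, 17258 and 18562, and double heterozygotes 15707, 13685, 15983 and 17563. Tip30+/- had the highest group mean, wild type 3 and 4 lay above 3 of the 4 Tip30+/- livers, and only 1 double heterozygote reached above the lowest of them. The double heterozygotes lay -0.29 ± 0.11 from Tip30+/- (95% confidence interval -0.53 to -0.05), and the differences from wild type were -0.21, 0.12 and -0.17, each ± 0.11, in Ncoa5+/-, Tip30+/- and double heterozygotes. Without the libraries low in Zhx2 these read -0.37, -0.05 and -0.33. Within the lower tags they were 0.0010, 0.30 and -0.10, and within the higher tags, with 1 Tip30+/- mouse, -0.43, -0.09 and -0.24.

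Tfrc, the receptor through which cells take up transferrin iron, differed most within groups. Wild-type mice had 3850, 3003, 1432 and 296 normalized counts, Ncoa5+/- mice 1625, 1484, 378 and 578. Those of Tip30+/- were 415, 774, 1499 and 748, and double heterozygotes 1191, 510, 405 and 401. The 2 highest and the lowest of all livers were wild type, so all groups overlapped. The log2 differences from wild type were -0.80, -0.94 and -1.41, each ± 0.77, and the interval for the double heterozygotes ran from -3.08 to 0.26. Those values rest on wild type 1 and 2, which are among the libraries low in Zhx2. Without the 4 low libraries the differences were 0.20 in Ncoa5+/-, 0.25 in Tip30+/- and -0.22 in double heterozygotes, so the sign turned for both single heterozygotes.

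Tfrc and Hamp each differed between the lower and the higher tags with the same sign in every genotype, in opposite directions. In every genotype the mean log2 level of Tfrc was higher at lower tags, by 2.38 in wild type, 1.73 in Ncoa5+/-, 0.07 in Tip30+/- and 0.95 in double heterozygotes. That of Hamp was lower there in every genotype, with differences of -1.39, -0.40, -0.49 and -0.79 in the same order. In the wild type the 2 mice with lower tags had Tfrc at 3003 and 3850 and Hamp at 16942 and 18645, and the 2 with higher tags had Tfrc at 296 and 1432 and Hamp at 40999 and 52882. Within the lower tags Tfrc differed from wild type by -1.13 in Ncoa5+/-, -2.11 in Tip30+/- and -2.12 in double heterozygotes, and within the higher tags by -0.48, 0.20 and -0.69. Hamp differed from wild type by 0.30, 0.65 and 0.11 in the lower tags and by -0.69, -0.25 and -0.48 in the higher tags, so its sign turned between the ranges for all 3 genotypes. All 3 differences use the same 2 wild-type mice in each range, and the higher range holds 1 Tip30+/- mouse. What the tags stand for in these livers was not tested. The low-Zhx2 wild-type pair and the lower-tag wild-type pair are the same 2 mice and cannot be told apart.

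**Figure D3:**
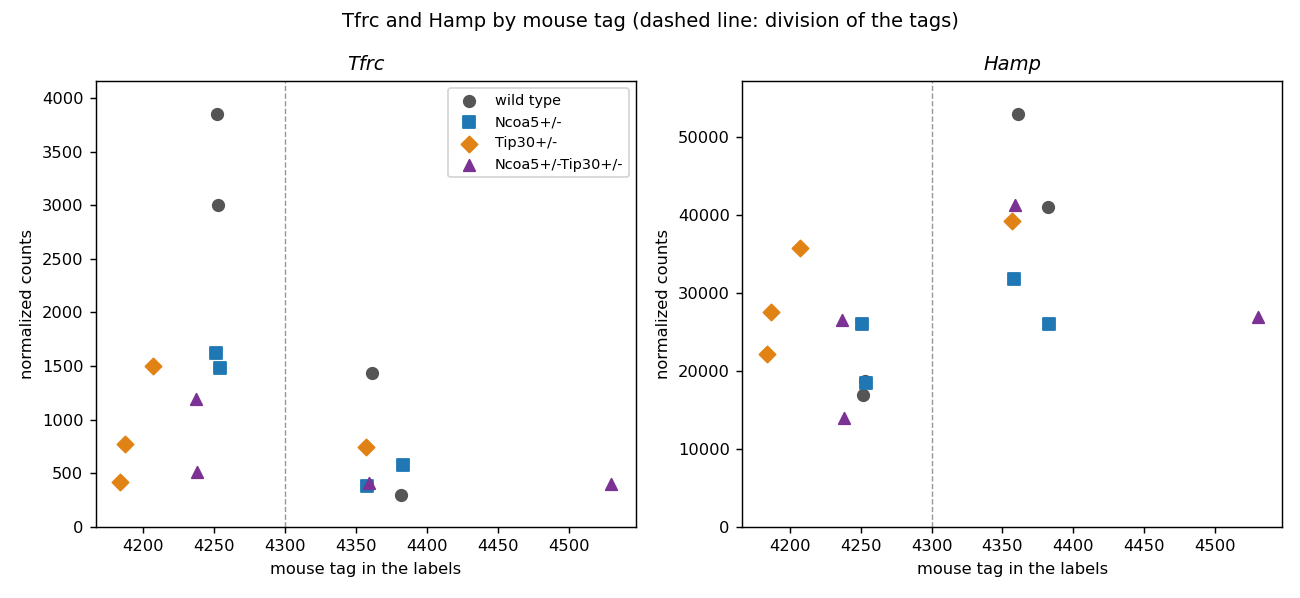
Normalized counts (linear axes from 0) of Tfrc and Hamp in 16 livers against the mouse tag of the labels, with colours and symbols for genotypes and a dashed line at 4300. The 2 wild-type mice left of the line hold the highest Tfrc (3003 and 3850), and the 2 right of it the highest and the third highest Hamp (52882 and 40999).

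The acute phase also acts on Hamp, through interleukin 6 and STAT3. Its 8 listed genes (Saa1, Saa2, Saa3, Lcn2, Socs3, Orm2, Itih4 and Steap4, a metalloreductase also held by the uptake list below) summed to 64548 to 71334 normalized counts in wild type, 54916 to 78320 in Ncoa5+/-, 57931 to 66462 in Tip30+/- and 40566 to 62843 in double heterozygotes. Over 16 libraries r with Hamp was 0.47 (permutation p = 0.0639, adjusted 0.0852) and rho 0.28 (p = 0.289, adjusted 0.289), and r fell to 0.32 without the 2 farthest libraries. It was 0.53 within genotypes, 0.35 within the lower tags and 0.90 within the higher tags. Itih4 alone made up 86.9% to 94.2% of the sum in every library, so the value is mostly that of 1 gene. By measures chosen after seeing the data, r with Hamp was -0.09 (permutation p = 0.735) for the mean log2 level of the 8 genes and 0.10 (permutation p = 0.706) for the sum of the 7 without Itih4.

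Steap2, a metalloreductase that reduces iron and copper, had the largest differences between groups that did not overlap. Wild-type mice had 64.4, 59.9, 86.1 and 133 normalized counts, and Ncoa5+/- mice 20.3, 19.3, 39.6 and 24.3. In Tip30+/- there were 147, 164, 134 and 79.9, and double heterozygotes 48.8, 34.8, 19.9 and 73.2. Every Ncoa5+/- liver was below every wild-type liver, and every double heterozygote was below every Tip30+/- liver, while double heterozygotes overlapped with both the wild type and Ncoa5+/-. The level was low throughout, with 18 reads in the lowest library, and the gene is best known from the prostate. Over 16 libraries r of Steap2 with the hepatocyte marker sum was 0.63 (0.62 within genotypes, permutation p adjusted over the 50 pairs 0.0954). The 9 hepatocyte markers had a median difference of -0.08 in Ncoa5+/- against wild type and -0.37 in double heterozygotes against Tip30+/-. Their part in the differences of Steap2 was not tested.

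Steap2 was lower with 1 Ncoa5 allele lost both beside intact Tip30 and beside 1 lost Tip30 allele. Both differences were known when the gene was chosen, so their likeness is a description. The difference was -1.68 ± 0.36 in Ncoa5+/- against wild type (95% confidence interval -2.44 to -0.91, 3.20-fold lower) and -1.65 ± 0.36 in double heterozygotes against Tip30+/- (-2.41 to -0.88, 3.13-fold lower). The difference between these values, the interaction, was 0.03 ± 0.51 (95% confidence interval -1.05 to 1.11), wide enough to hold a 2-fold departure either way. Tip30+/- livers differed from wild type by 0.63 ± 0.36 (-0.14 to 1.39) and double heterozygotes from Ncoa5+/- by 0.66 ± 0.36 (-0.10 to 1.42), and both intervals hold 0. Within the lower and the higher tags Steap2 differed by -1.60 and -1.75 in Ncoa5+/- against wild type, and by -1.82 and -1.04 in double heterozygotes against Tip30+/-. The Tip30+/- difference from wild type was 1.24 in the lower tags and -0.42 in the higher, where there is 1 Tip30+/- mouse. In Ncoa5+/- against wild type, the difference was -1.91 without the libraries low in Zhx2, where it no longer lay under the threshold, and between -1.90 and -1.44 with any 1 mouse left out. With the 2 groups alone, or with a minimum mean of 50, it was not under the threshold either. It stayed under the threshold when the mouse left out was wild type 2, Ncoa5+/- 3, Tip30+/- 4 or double heterozygote 3 or 4, and not for the other 11. Against Tip30+/-, the double heterozygotes lay under it in 11 of 16 such fits, and not without Tip30+/- 1, 2 or 3 or double heterozygote 2 or 3, with differences of -1.93 to -1.33.

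Slc40a1, the exporter that hepcidin removes, had 3290 to 5071 normalized counts in wild type (median 4219), 3245 to 6508 in Ncoa5+/- (5014), 3756 to 5373 in Tip30+/- (5120) and 2544 to 4635 in double heterozygotes (3695). All groups overlapped. The double heterozygotes lay -0.23 ± 0.24 from wild type, -0.45 ± 0.24 from Tip30+/- and -0.43 ± 0.24 from Ncoa5+/-, and the interaction was -0.65 ± 0.34 (95% confidence interval -1.36 to 0.07). Within the lower and the higher tags the double heterozygotes differed from wild type by -0.67 and 0.21, and Ncoa5+/- by -0.27 and 0.67, so both signs turned. From Ncoa5+/- the double heterozygotes differed by -0.41 and -0.46, and from Tip30+/- by -0.80 and -0.12, the latter with 1 Tip30+/- mouse. Kupffer cells, the macrophages of the liver, also express the exporter. Their 10 markers (all in the table, with no call in limma, edgeR or DESeq2, and in limma 3 at an unadjusted p under 0.05 in Ncoa5+/- against wild type) summed to 3346 to 8313 in wild type, 6805 to 14720 in Ncoa5+/-, 6401 to 8615 in Tip30+/- and 5230 to 10428 in double heterozygotes. All 10 had positive differences in Ncoa5+/- against wild type (median 0.61). All 10 were negative in double heterozygotes against Ncoa5+/- (median -0.34) and in the interaction (-0.57). For double heterozygotes against wild type and against Tip30+/- the medians were 0.30 and 0.05. The r of the Kupffer cell sum with Slc40a1 over 16 libraries was 0.31 (permutation p = 0.239, adjusted 0.239), rho 0.31 (p = 0.244, adjusted 0.289), r without the 2 farthest libraries 0.35, within genotypes 0.35, and within lower and higher tags 0.14 and 0.50. With the hepatocyte marker sum r was 0.57 (0.48 within genotypes) and rho 0.68, with permutation p adjusted over the 50 pairs of 0.136 and 0.0726. The part of these cells in the level of Slc40a1 was not tested.

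Fth1, the heavy chain of the iron store ferritin, hardly varied. It had 36119 to 44289 normalized counts in wild type (median 39998), 36648 to 44616 in Ncoa5+/- (42902), 41885 to 45932 in Tip30+/- (42964) and 35337 to 49014 in double heterozygotes (41898). The differences from wild type were 0.06, 0.12 and 0.06, each ± 0.12, and the interval in Tip30+/- ran from -0.13 to 0.37. Within the lower tags they were 0.24, 0.26 and 0.35, and within the higher tags, with 1 Tip30+/- mouse, -0.12, -0.02 and -0.22. Ferritin protein is set largely by translation, which messenger levels do not show.

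Alas1, the first enzyme of heme synthesis in the liver, was even in the wild type and uneven elsewhere. Wild-type mice had 17044, 13693, 14893 and 14903 normalized counts, Ncoa5+/- mice 10776, 16366, 16509 and 19323. Tip30+/- mice had 15310, 36540, 11838 and 31728, and double heterozygotes 8169, 12282, 19451 and 8578. Tip30+/- mice 2 and 4 were above all others, the other 2 within or below the wild-type range, and 3 of 4 double heterozygotes were below the whole wild type. The double heterozygotes lay -0.91 ± 0.34 from Tip30+/- (95% confidence interval -1.64 to -0.18), a difference under the threshold with DESeq2 and not with limma or edgeR. The interaction was -0.94 ± 0.48 (-1.98 to 0.09). Within the lower and the higher tags the double heterozygotes differed from Tip30+/- by -0.91 and -1.30. The higher range holds 1 Tip30+/- mouse, mouse 4 (31728), which is among the 2 above all others. Of its 6174 exon bases 465 are shared with 4930500F10Rik on the opposite strand.

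Alas2, the erythroid form of the enzyme, was higher in every double heterozygote than in every wild-type liver. Wild-type mice had 185, 284, 269 and 213 normalized counts, Ncoa5+/- mice 242, 337, 385 and 222. Tip30+/- mice had 404, 272, 451 and 329, and double heterozygotes 511, 444, 307 and 623. The difference from wild type was 0.96 ± 0.23 in double heterozygotes (95% confidence interval 0.48 to 1.44, 1.94-fold), 0.61 ± 0.23 in Tip30+/- (0.13 to 1.09) and 0.30 ± 0.23 in Ncoa5+/- (-0.18 to 0.78). The interaction was 0.05 ± 0.32 (-0.63 to 0.73). Within the lower and the higher tags the double heterozygotes differed from wild type by 1.05 and 0.87. Without the libraries low in Zhx2 the value was 0.93 and no longer under the threshold, nor was it with the 2 groups alone. Leaving out 1 mouse gave 0.81 to 1.15, and the difference was not under the threshold without wild type 1 or 4 or double heterozygote 1, 2 or 4. Apex2, which shares 311 of the 2403 exon bases of Alas2 on the opposite strand, differed by -0.06 ± 0.19 in the same comparison. Per kilobase, the ratio of Alas1 to Alas2 had a median of 24.4 in wild type, 18.1 in Ncoa5+/-, 26.2 in Tip30+/- and 8.49 in double heterozygotes, where it ranged from 5.36 to 24.7.

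Alas2 moved with the summed level of red-cell markers, a sum made up mostly of globin. Of 16 erythroid markers 13 were in the table and 6 were tested. In double heterozygotes against wild type 0 of 6 passed the threshold in limma, edgeR or DESeq2, with 0, 1 and 4 at an unadjusted p under 0.05, and their median difference in limma was 0.77. Their summed level was 16101 to 51207 normalized counts in wild type, 37304 to 43073 in Ncoa5+/-, 15486 to 42038 in Tip30+/- and 24917 to 89564 in double heterozygotes. Nearly all of it was globin: Hba-a1 had a median of 12253, Hba-a2 of 10862 and Hbb-b1 of 10115. The membrane and transcription factor genes of red-cell precursors Epb42, Rhag and Gata1 were at or near 0, with highest values of 4.13, 3.15 and 4.13. The double heterozygote with the lowest marker sum (24917) had the lowest Alas2 of its group (307), and the one with the highest sum (89564) the highest Alas2 (623). Over 16 libraries r was 0.62 (permutation p = 0.00919, adjusted 0.0184) and rho 0.61 (p = 0.0138, adjusted 0.0276), r without the 2 farthest libraries was 0.71, within genotypes 0.64, and within lower and higher tags 0.69 and 0.67. Adjusted over all 50 pairs of gene and marker sum, the permutation p of r was 0.0954 and that of rho 0.109. Relations of like size were those of Alas2 with the acute phase sum (r = -0.60, or -0.28 within genotypes, adjusted permutation p over the 50 pairs 0.0954) and of Alas1 with the erythroid sum (-0.65, or -0.58 within genotypes, 0.0954). That of Steap2 with the hepatocyte marker sum was also of like size (0.63, or 0.62 within genotypes, 0.0954). As a mean log2 level, the 13 markers stood at 5.63, 5.58, 4.73 and 6.72 in double heterozygotes 1 to 4. In wild type 1 to 4 that mean was 5.24, 5.94, 5.37 and 4.72, so the groups overlapped. The relation of Alas2 with that mean, in which globin weighs less, was not tested. The part of red-cell RNA in the difference of Alas2 was not tested.

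**Figure D4:**
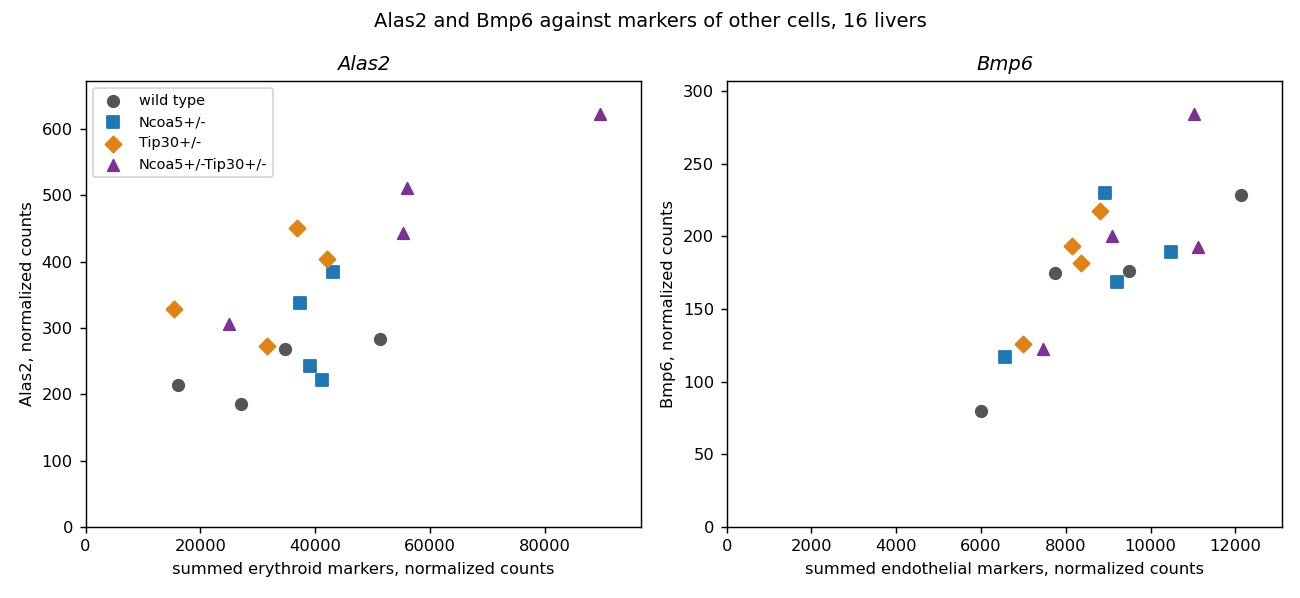
Normalized counts of Alas2 against the sum of 13 erythroid markers (left) and of Bmp6 against the sum of 10 markers of sinusoidal endothelium (right), 1 point per liver, linear axes from 0. Alas2 and its marker sum, mostly globin, rise together (r = 0.62 on the log2 scale), with a double heterozygote at the top of both (623 and 89564). Bmp6 and its marker sum also rise together (r = 0.84).

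Other iron and heme genes were taken from 9 lists of 62 genes, all in the table and 59 of them tested, which hold none of the 10 genes above. In the double heterozygotes against wild type 3 of 59 passed (adjusted p under 0.05 in limma), all lower, beside 2.67% of all tested genes (1.27% lower). Steap3 is a reductase of the endosome that acts on iron brought in by transferrin (chromosome 1, 120190757 to 120272705). It had 1208, 1024, 823 and 1182 normalized counts in wild type and 520, 442, 761 and 657 in double heterozygotes. The groups did not overlap, and Steap3 fell by 0.85 ± 0.16 on the log2 scale (95% confidence interval -1.19 to -0.50, limma adjusted p = 0.0137). Neo1, neogenin, a partner of hemojuvelin in BMP signalling (chromosome 9, 58874687 to 59036441), had 530, 529, 501 and 552 in wild type and 392, 233, 335 and 442 in double heterozygotes, and fell by 0.63 ± 0.15 (limma adjusted p = 0.0348). Slc11a2, the divalent metal transporter DMT1 (chromosome 15, 100387898 to 100425072), had 1187, 1175, 929 and 1015 against 909, 653, 751 and 852, and fell by 0.45 ± 0.12 (limma adjusted p = 0.0472). Each of the 3 was lower in all double heterozygotes than in all wild-type livers, as were 8 of the 59 list genes and 6% of all tested genes.

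The 3 calls differed in how far they depended on the libraries used. None of them was made with the 2 groups alone or without the libraries low in Zhx2, and over fits that leave out 1 mouse the count ran from 0 (without wild type 1 or double heterozygote 2) to 6 (without wild type 3). Leaving out wild type 1 or double heterozygote 2 ended the call of Steap3 (limma adjusted p = 0.0552 and 0.0600, log2 differences of -0.78 and -0.71), which was made in 23 of 27 alternative fits. With the 2 groups alone the difference of Steap3 was -0.85 and without the libraries low in Zhx2 -0.76. For Neo1 the call ended without wild type 1, 2 or 4 or double heterozygote 2 or 3 (limma adjusted p of 0.0700 to 0.0954), it was made in 20 of 27 fits, and the difference without the libraries low in Zhx2 was -0.62. Slc11a2 kept its call in 11 of 27 alternative fits, and among those that leave out 1 mouse only without wild type 3, Ncoa5+/- 4 or double heterozygote 1 or 4 (otherwise limma adjusted p of 0.0507 to 0.165). In edgeR Steap3 and Neo1 passed and Slc11a2 did not, and in DESeq2 all 3 passed together with the endocytic receptor gene Lrp1.

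**Figure D5:**
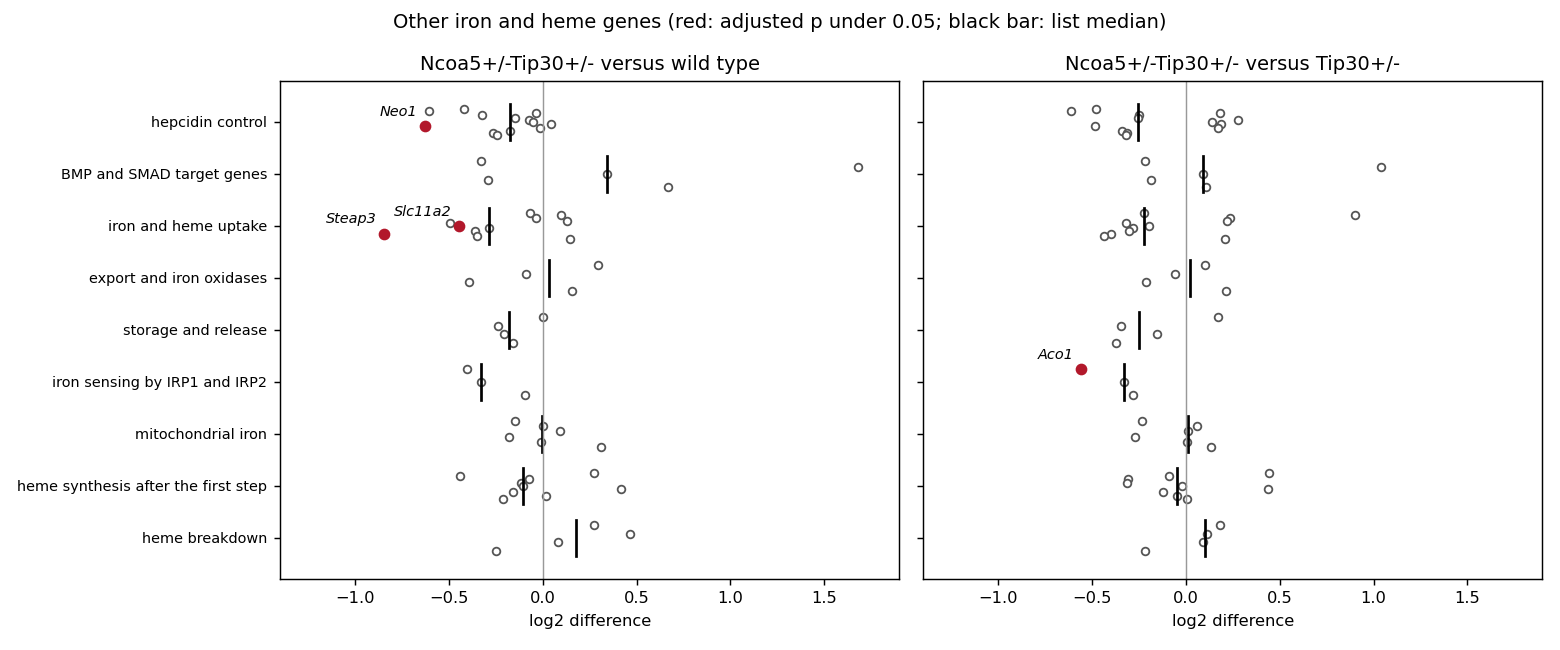
Log2 differences of the 59 tested genes of 9 iron and heme lists in double heterozygotes against wild type (left) and against Tip30+/- (right). Red points passed the threshold (Steap3, Neo1 and Slc11a2 on the left, Aco1 on the right), open points did not, and the black bar is the median of each list.

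Over all lists the median difference of the double heterozygotes from wild type was -0.11, beside -0.01 over all tested genes, with 40 of 59 values negative. Of 13 tested genes of hepcidin control (BMP receptors, SMADs, hemojuvelin, Tmprss6 and others) 1 passed, lower, and 12 were negative, with a median of -0.18. These signs were not weighed by whether a gene raises or lowers hepcidin, so they give no direction for hepcidin. The 9 hepatocyte markers had a median of -0.27 in the same comparison (6 negative, 0 passing in limma, edgeR or DESeq2, 3 at an unadjusted p under 0.05 in limma), and their part in the lower list values was not tested. Of 11 uptake genes 2 passed, lower, with a median of -0.29. Lists of export (4 genes), storage (4), iron sensing (3), mitochondrial iron (6), heme synthesis after the first step (9) and heme breakdown (4) had 0 passing, with medians of 0.03, -0.18, -0.33, -0.0028, -0.11 and 0.18. The 5 BMP and SMAD target genes had a median of 0.34, and 0 passed. Among them Id1 had 96.1, 159, 640 and 146 normalized counts in wild type and 462, 594, 1049 and 536 in double heterozygotes, a difference of 1.68 ± 0.45 (limma adjusted p = 0.0634), and groups overlapped through wild type 3.

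In the double heterozygotes against Tip30+/-, 1 of 59 list genes passed, lower, beside 3.07% of all tested genes (1.47% lower). It was Aco1, the cytosolic aconitase that turns into iron regulatory protein 1 when iron is scarce (chromosome 4, 40143081 to 40198338). Tip30+/- mice had 9335, 8932, 10483 and 9888 normalized counts and double heterozygotes 7256, 5610, 6391 and 7055, with no overlap. Aco1 fell by 0.56 ± 0.13 (95% confidence interval -0.83 to -0.28, limma adjusted p = 0.0309). The call ended without any 1 of the 4 Tip30+/- mice or without double heterozygote 2 or 3 (limma adjusted p of 0.0610 to 0.124). Ncoa5+/- livers had 7963, 7168, 7886 and 5257 and wild-type livers 10010, 8005, 8243 and 8505, also without overlap, with a difference of -0.31 ± 0.13 that did not pass (limma adjusted p = 0.407). Over fits that leave out 1 mouse the count was 0 to 3, with 3 without wild type 3 or double heterozygote 4. With the mouse tag as a covariate 10 of 59 passed against Tip30+/-, beside 8.81% of all tested genes, and 7 of 59 against wild type, beside 4.57%. Against Tip30+/- the 9 hepatocyte markers had a median of -0.37, with 7 negative, 2 lower in every mouse and 0 passing in limma, edgeR or DESeq2 (4 at an unadjusted p under 0.05 in limma).

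For Ncoa5+/- against wild type 0 of 59 list genes passed in limma, edgeR or DESeq2, beside 0.557% of all tested genes that passed in limma. An unadjusted p under 0.05 in limma was found for 5 of 59, beside 10.2% of all tested genes. The smallest p values belonged to Slc11a2 (-0.38 ± 0.12, limma adjusted p = 0.201), Id1 (1.43 ± 0.45, 0.244) and the heme carrier hemopexin, Hpx (0.32 ± 0.12, 0.337). For Tip30+/- against wild type the count was 0 of 59 by the same 3 tools, with 3 at an unadjusted p under 0.05 in limma, beside 7.34% of all genes. Steap3 (-0.44 ± 0.16, limma adjusted p = 0.596), Slc11a2 (-0.25 ± 0.12, 0.675) and the biliverdin reductase Blvrb (0.35 ± 0.17, 0.679) came first. For double heterozygotes against Ncoa5+/- it was 0 of 59 by the 3 tools, with 7 at an unadjusted p under 0.05, beside 8.93% of all genes. They were led by Steap3 (-0.59 ± 0.16, limma adjusted p = 0.475), the heme enzyme Ppox (0.48 ± 0.14, 0.475) and Neo1 (-0.42 ± 0.15, 0.475). The interaction gave 0 of 59 by the 3 tools, with 3 at an unadjusted p under 0.05 in limma, beside 4.26% of all genes. These were the cysteine desulfurase Nfs1 (-0.30 ± 0.11), the reductase Cybrd1 (1.73 ± 0.66) and Ppox (0.50 ± 0.20), each with a limma adjusted p of 0.950.

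The genes most alike to each of the 10 over the 16 libraries, among 11879 others with a mean of at least 50, are given by Pearson's r on the log2 scale and without a test. Libraries share genotype, tags and depth in these values. For Hamp they were Gsap (0.85), Atp6v0d2 (0.82) and Agxt2 (0.79), and for Hamp2 Usp28 (0.88), Kmt2e (0.87) and Clybl (0.85). The r of Hamp with Hamp2 itself was 0.14 (-0.03 within genotypes). Bmp6 was most like Slc12a5 (0.90), Itpripl2 (0.86) and Chst7 (0.86), and Tfr2 like Laptm4b (0.93), Prkcz (0.92) and Kif1c (0.91). Tfrc was most like Tmem104 (0.89), Nacc1 (0.88) and Sdc1 (0.88). Steap2 was most like Lrrc29 (0.93), Nrp2 (0.93) and Sugct (0.91), Slc40a1 like Wwc2 (0.89), Bcas3 (0.88) and Nbr1 (0.88), and Fth1 like Borcs7 (0.90), Bag1 (0.89) and Ndufa10 (0.88). Alas1 was most like Trib1 (0.88), Lifr (0.83) and Foxa1 (0.83), and Alas2 like Cyp46a1 (0.83), Fam198a (0.82) and Pyroxd2 (0.80). None of the 10 was among the 3 most alike to another of the 10.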

How the data were processed

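Per the labels, the deposited values are a DESeq2-normalised signal: the reads of a gene after division by the size factor of the library (30199 genes, 16 libraries). Per the submitters' processing notes the authors used Trimmomatic 0.36, STAR 2.6.0c and DESeq2 1.28.1 with GRCm38. Sources used here do not name the counting program or the gene annotation. The oligo(dT) library protocol in the labels mentions no marking of strand. In each library 100% of values were whole multiples of 1 smallest step (tolerance 0.0001), from which whole reads were recovered. Symbols came from the table (18821), from a gene table (11328) or were lacking (50), and positions and exon lengths from GENCODE M21. No pair of libraries were copies of each other (lowest chi-square per gene 20.7).

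The 10 genes, the lists and the alternatives were chosen with earlier results of these data known. Of the lists, genes that passed are named (at most 6 by smallest p, else the 3 smallest p as values), and for each of the 10 genes the 3 most alike. The main test was limma 3.58.1 (R 4.3.3, trend and robust) on log2(value + 1), with 4 group means over 16 libraries, genes with a mean of at least 10 (15263), and 2-sided p values adjusted by Benjamini-Hochberg over all of them, passing under 0.05. Labels give separate mice as replicates. Correlations were tested by 2-sided permutation (100000 resamples), adjusted over 4 pairs set in the design and, chosen after seeing the data, over all 50. Alternatives were edgeR 4.0.16 and DESeq2 1.42.0 on these reads, a pseudocount of 0.5 or 5, a minimum mean of 50 or none, TMM and upper-quartile scaling, the mouse tag (under 4300 or not) as a covariate, the 2 groups alone, the libraries low in Zhx2 left out, and each mouse left out. The chain was tested on simulated data. Promoter windows and motifs were read in Python 3.11.15 and aligned with Biopython 1.88.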

Additional observations from a re-analysis of the deposited data

Results flagged for a closer look

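In groups of 4 livers a value was marked when its gap to the nearest of the others divided by the range of the group was above Dixon's critical value for 4 values at 95%. Of 40 combinations of gene and genotype looked at, 2 were marked, and chance marks about 1 in 20. Hamp2 had 303 normalized counts in Tip30+/- mouse 2, where the other 3 Tip30+/- mice had 674 to 686. Tfrc had 1191 in double heterozygote 1, where the other 3 had 401 to 510. Double heterozygote 1 is a mouse with a lower tag.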

How the results depend on the processing

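No paired analysis was possible because the labels give mouse tags and no replicate numbers shared between genotypes. None of the differences of the 10 genes that lay under the threshold changed sign in the 27 alternatives. Some that did not lie under it changed sign. Against wild type, Hamp in Tip30+/- kept its sign in 21 of 27, Hamp2 in double heterozygotes in 22 and Alas1 in Ncoa5+/- in 24. Tfrc kept its sign in 26 of 27 in each single heterozygote and in all 27 in double heterozygotes. Bmp6, Tfr2 and Fth1 also changed sign in some alternatives. With DESeq2 the number of genes passing was 257 for Ncoa5+/-, 43 for Tip30+/- and 1044 for double heterozygotes against wild type (85, 2 and 407 in limma), 1118 for double heterozygotes against Tip30+/- (469), 32 against Ncoa5+/- (3) and 1 for the interaction (0), and 4 iron and heme list genes passed against Tip30+/-. With the mouse tag as a covariate 697 genes and 7 list genes passed for double heterozygotes against wild type, and 1344 and 10 against Tip30+/-. With the 2 groups alone 56 genes passed for Ncoa5+/- and 107 for double heterozygotes against wild type, with 0 list genes for the latter, 9 for double heterozygotes against Ncoa5+/-, and against Tip30+/- 571 genes (3.74% of those tested) and 4 list genes of 59. Without the libraries low in Zhx2 the numbers against wild type were 29, 6 and 121 with 0 list genes, and 1 against Ncoa5+/-. Leaving out 1 mouse in turn gave, against wild type, 45 to 90 genes in Ncoa5+/-, 1 to 8 in Tip30+/- and 88 to 846 in double heterozygotes, and for double heterozygotes 107 to 764 against Tip30+/-, 1 to 10 against Ncoa5+/- and 0 to 0 for the interaction. List genes then ranged from 0 to 1 for Ncoa5+/- and from 0 to 6 for double heterozygotes against wild type, and from 0 to 3 against Tip30+/-. The cause of these shifts was not tested. Steap2 and Hamp2 had as few as 18 and 50 reads in a library, so counting error is part of their spread.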
